A study of Mus musculus with 12 samples.

Results

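A set of 7 genes that are known markers or regulators of plasmacytoid dendritic cells (pDCs) were followed across 4 sorted skin fractions. They are Siglech, Ccr9, Tcf4, Upb1, Smim5, Spib and Runx2, the 7 rows of those symbols among 37775 genes in the count table. The genes were picked because they were seen at high levels in the Classical mono libraries, so their levels there against the other fractions are given as a description, without a test. The 12 libraries came from inflamed ear skin of WT BALB/c mice with IgE-mediated chronic allergic inflammation (IgE-CAI), a skin allergy model in which 300 μg of anti-TNP IgE is injected intravenously and 10 μg of TNP-OVA is injected into the ear on the next day. Cells were sorted on day 5 into Classical mono (Ly6ChiPD-L2lo), Early CMDM (Ly6ChiPD-L2hi, where CMDM stands for classical monocyte-derived macrophage), Late CMDM (Ly6CloPD-L2hi) and Resident-like (Ly6CloPD-L2lo), with 3 libraries each. All 4 fractions shared genotype, strain, treatment and day, and the challenged ears are the only ones used here. Per the methods, the mice were adult males and the sorted cells were positive for CD45 and CD11b and negative for Siglec-F and Ly6G. The gate that the methods give for Mo-Macs in general also asks for F4/80, a macrophage protein. A fraction is thus defined by 2 surface proteins within this gate, and other CD11b-bearing cells with the same Ly6C and PD-L2 levels would be sorted with it. Nothing in the labels says that the 3 libraries of a fraction came from separate mice, so the p-values measure the spread between these libraries, which may be technical.

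pDCs are a rare dendritic cell type that senses viral and self nucleic acids through the endosomal receptors TLR7 and TLR9 and releases large amounts of type I interferon. Their identity depends on the E protein TCF4, also named E2-2, which is opposed by the inhibitor ID2, and on the Ets factor SPIB. In mice they carry Ly6C on the surface and little CD11b, and in resting skin they are scarce. Most of the 7 genes are used by other cells as well. Spib is a B cell gene, Runx2 is the master regulator of bone-forming cells, Ccr9 marks thymocytes and gut-homing T cells, and Tcf4 is found in fibroblasts and many other cells.

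The members lie apart in the genome, and only Siglech and Spib share a chromosome. In RefSeq on GRCm38, Siglech spans 55768154 to 55779448 on the plus strand of chromosome 7, Ccr9 spans 123767211 to 123783457 on the plus strand of chromosome 9, Spib spans 44525995 to 44532087 on the minus strand of chromosome 7 and Runx2 spans 44495987 to 44814797 on the minus strand of chromosome 17. Upb1 spans 75406911 to 75441679 on chromosome 10 and Smim5 spans 115897806 to 115906269 on chromosome 11, both on the plus strand.

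Siglech, Ccr9, Spib and Runx2 were at least 4 times as high in the lowest Classical mono library as in the highest of the other 9 libraries, and their promoter windows are shown here because E proteins such as TCF4 bind the E-box, CANNTG. Each window holds 250 bases before and 50 bases after 1 RefSeq transcription start of the gene, on GRCm38.p6 and on its strand. For Siglech, Spib and Runx2 this start lies inside the span given above, not at its edge, and other starts of these genes were not read. The windows are chr7:55767934-55768233 for Siglech, chr9:123766961-123767260 for Ccr9, chr7:44532022-44532321 for Spib (minus strand) and chr17:44814578-44814877 for Runx2 (minus strand). Capitals mark the E-boxes.
Siglech: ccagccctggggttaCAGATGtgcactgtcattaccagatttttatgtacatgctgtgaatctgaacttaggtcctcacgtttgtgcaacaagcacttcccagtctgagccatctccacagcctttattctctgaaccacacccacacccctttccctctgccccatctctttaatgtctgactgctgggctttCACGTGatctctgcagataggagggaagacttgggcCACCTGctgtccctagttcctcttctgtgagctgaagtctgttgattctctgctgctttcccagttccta
Ccr9: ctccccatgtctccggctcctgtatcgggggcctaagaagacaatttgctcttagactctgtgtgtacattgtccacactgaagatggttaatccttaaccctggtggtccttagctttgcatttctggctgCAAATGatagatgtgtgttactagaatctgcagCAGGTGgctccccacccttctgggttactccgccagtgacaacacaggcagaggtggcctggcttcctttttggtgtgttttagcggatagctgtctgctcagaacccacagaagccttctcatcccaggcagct
Spib: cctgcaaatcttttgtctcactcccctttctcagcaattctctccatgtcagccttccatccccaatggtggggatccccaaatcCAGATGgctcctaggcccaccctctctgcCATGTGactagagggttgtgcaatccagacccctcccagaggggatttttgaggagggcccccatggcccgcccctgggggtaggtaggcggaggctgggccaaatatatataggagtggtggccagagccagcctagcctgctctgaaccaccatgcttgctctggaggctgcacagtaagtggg
Runx2: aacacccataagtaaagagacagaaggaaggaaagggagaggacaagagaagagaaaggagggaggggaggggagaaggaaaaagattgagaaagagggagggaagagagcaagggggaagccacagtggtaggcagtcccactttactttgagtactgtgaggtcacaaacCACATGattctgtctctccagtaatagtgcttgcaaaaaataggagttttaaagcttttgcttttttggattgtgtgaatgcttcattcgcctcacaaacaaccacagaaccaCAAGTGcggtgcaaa
Siglech held 3 E-boxes and Ccr9, Spib and Runx2 held 2 each. Upb1, the remaining member with a window among the 5 of 7 that matched the table, held 1. An E-box is a common sequence: 72.3% of 32851 mouse promoter windows of the same length held at least 1, with a median of 1. The variant CAGCTG, which 16.3% of all windows hold, was in none of the 5. The PU-box GAGGAA, the core of sites for Ets factors of the SPIB kind, was found once in Siglech and once in Upb1 (28.3% of all windows), and the RUNX motif TGTGGT was found once in Siglech and 3 times in Runx2 (16.8% of all windows). All motifs were searched on both strands. No window was given for Tcf4 or Smim5.

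Libraries held 12537178 to 19844113 counts. Levels are given as CPM, counts scaled to library size and normalized by the trimmed mean of M values (TMM), on which scale 3 counts are worth 0.151 to 0.239 CPM, depending on the library. This floor covers counting error only, because no molecular identifiers were used and copies of 1 molecule are counted apart. Every member was far above it in all 12 libraries, and all 7 passed the filter on low counts. The fractions also differed in their content of other cells. The summed level of 5 keratinocyte genes (Krt5, Krt14, Krt10, Krt1 and Dsp) ranged from 16544 to 26342 CPM in Early CMDM and from 1797 to 3880 CPM in the other 9 libraries. A high share of such RNA lowers the CPM of leukocyte genes, so each comparison was repeated with libraries scaled by 10 leukocyte genes in place of TMM. With that scaling the median of all genes moved by -1.66 on the log2 scale in Classical mono against Early CMDM, by -0.79 against Late CMDM and by -0.19 against Resident-like.

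Siglech encodes SIGLEC-H, a sialic acid-binding lectin of the pDC surface that signals through the adaptor DAP12. Its level was 395, 209.5 and 276 CPM in Classical mono, 14.5, 12.6 and 13.8 CPM in Early CMDM, 41.2, 43.5 and 26.5 CPM in Late CMDM and 19.1, 23.7 and 20.2 CPM in Resident-like. The 3 Classical mono libraries stood above all others, the lowest of them at 4.81 times the highest of the other 9. The log2 fold change of Classical mono was 4.43 (SE 0.24) against Early CMDM, 2.98 (SE 0.22) against Late CMDM and 3.80 (SE 0.23) against Resident-like. The mean level in Early CMDM was 4.64% of that in Classical mono, and in Late CMDM 12.6%.

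Ccr9 encodes the receptor for the chemokine CCL25, which guides pDCs and T cells to the gut and thymus. It was measured at 383, 215 and 262 CPM in Classical mono and between 10.4 and 14.0 CPM in all 9 other libraries. Those 9 values were close together: the means were 13.1 ± 0.88 CPM in Early CMDM, 11.9 ± 0.943 CPM in Late CMDM and 11.4 ± 0.914 CPM in Resident-like (SD, n = 3). Its log2 fold change in Classical mono was 4.45 (SE 0.18), 4.59 (SE 0.19) and 4.66 (SE 0.18) against Early CMDM, Late CMDM and Resident-like. T cell markers were also high in Classical mono, with a summed level of 172 to 227 CPM against 22.7 to 41.9 CPM in the other 9 libraries. The part of T cell RNA in the Ccr9 level was not tested. Part of the Ccr9 exons overlap those of other genes in GENCODE M21, of which AC165425.1 on the opposite strand shares 1932 bases, or 18.8% of the exon bases of Ccr9. The reporting summary of the paper lists the mapping option --nofw, which keeps reads from being aligned in the forward orientation. How reads of such overlaps were assigned was not tested.

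Spib had the largest contrast of the 7. SPIB is an Ets transcription factor of pDCs and B cells. The libraries of Classical mono held 526, 225 and 344 CPM, against 7.95 to 11.7 CPM in the other 9, and the lowest of the 3 was 19.3 times the highest of the 9. The log2 fold change was 5.09 (SE 0.26) against Early CMDM, 5.03 (SE 0.26) against Late CMDM and 5.43 (SE 0.26) against Resident-like, where the mean was 2.32% of the Classical mono mean. Markers of B cells were read beside it. The B cell markers Cd79a and Pax5 were too low to be tested, with at most 11 and 2 counts in any Classical mono library, and none of the 5 tested B cell markers was higher in Classical mono than in every other fraction, beside 6.08% of all genes. Ebf1 was higher there than in Late CMDM (log2 1.28, SE 0.24) and Resident-like (2.24, SE 0.25), and Cd79b than in Early CMDM (1.04, SE 0.24). Fcer2a was lower than in Resident-like (-2.21, SE 0.26). The part of B cell RNA in the Spib level was not tested.

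Runx2 encodes a Runt-family transcription factor that pDCs use to leave the bone marrow. It was at 134, 81.4 and 113 CPM in Classical mono, 8.35 to 11.1 CPM in Early CMDM, 9.48 to 10.5 CPM in Late CMDM and 13.9 to 15.8 CPM in Resident-like. The log2 fold change of Classical mono was 3.54 (SE 0.17), 3.46 (SE 0.17) and 2.85 (SE 0.16) in the same order. The defining bone genes Sp7, Bglap and Ibsp were too low to be tested, with at most 6 counts in any of the 12 libraries. The antisense gene Runx2os1, which shares 519 exon bases with Runx2, was also higher in Classical mono. It was at 6.02 ± 0.534 CPM there against 0.545 ± 0.102 CPM in Early CMDM (SD, n = 3). How reads of the shared part were assigned was not tested.

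Tcf4 is the central regulator of the lineage and also the most widely used of the 7 genes. Its CPM values were 260, 183 and 194 in Classical mono, 91.1, 82.0 and 86.7 in Early CMDM, 130, 139 and 125 in Late CMDM and 102, 99.5 and 102 in Resident-like. The groups did not overlap, but the margin was small, since the lowest Classical mono library was 1.32 times the highest of the others. The log2 fold change was 1.29 (SE 0.12) against Early CMDM, 0.69 (SE 0.12) against Late CMDM and 1.07 (SE 0.12) against Resident-like. With scaling by leukocyte genes the first of these became -0.38 and the second -0.10, so the direction for Tcf4 depended on the scaling, while the third stayed at 0.88. Fibroblasts use Tcf4 too. The summed level of their genes Col1a1, Col1a2, Pdgfra, Dcn and Lum was 2247 to 4006 CPM in Classical mono, 2030 to 2973 CPM in Early CMDM, 334 to 369 CPM in Late CMDM and 192 to 258 CPM in Resident-like. On the TMM scale Tcf4 was highest in Classical mono and lowest in Early CMDM. Under leukocyte scaling Early CMDM stood above the others. Against it the log2 fold change of Tcf4 was then -0.38 in Classical mono, -0.28 in Late CMDM and -1.26 in Resident-like. The part of fibroblast RNA in the Tcf4 level was not tested.

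On the TMM scale, Upb1 and Smim5 differed in which of the other fractions came next to Classical mono. UPB1 is β-ureidopropionase, the enzyme of the last step of pyrimidine breakdown, and SMIM5 is a small integral membrane protein. Upb1 was at 27.3, 21.4 and 18.7 CPM in Classical mono, 4.76 to 5.00 CPM in Early CMDM, 4.50 to 5.42 CPM in Late CMDM and 10.0 ± 1.76 CPM (SD, n = 3) in Resident-like. Smim5 was at 42.1, 17.8 and 28.4 CPM in Classical mono, 6.58 to 9.23 CPM in Early CMDM, 1.67 to 2.49 CPM in Late CMDM and 4.58 to 7.16 CPM in Resident-like. For Upb1 the log2 fold change of Classical mono was 2.19 (SE 0.17), 2.17 (SE 0.17) and 1.16 (SE 0.16) against Early CMDM, Late CMDM and Resident-like, and for Smim5 it was 1.90 (SE 0.26), 3.83 (SE 0.31) and 2.34 (SE 0.27). With scaling by leukocyte genes these became 0.53, 1.38 and 0.97 for Upb1 and 0.21, 3.04 and 2.15 for Smim5. By its TMM mean, Resident-like was the nearest fraction for Upb1 and Early CMDM the nearest for Smim5. Under leukocyte scaling Early CMDM was the nearest for both.

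**Figure D1:**
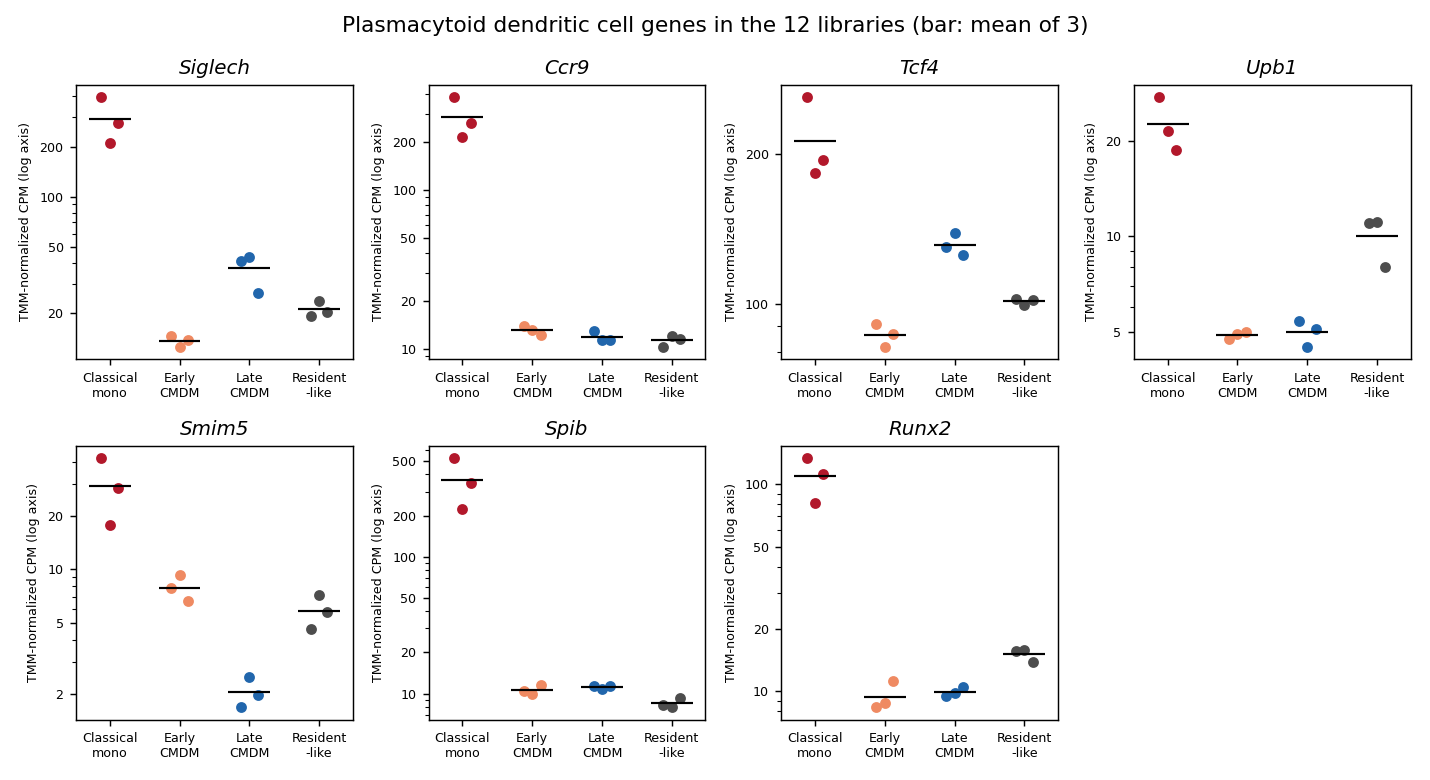
TMM-normalized CPM (log axes with their own range) of the 7 genes in each of the 12 libraries, with 1 point per library, ordered by replicate number within a fraction, and a bar at the mean of 3. All 3 Classical mono libraries lie above the other 9 for every gene, by the widest margin for Spib (19.3 times) and the narrowest for Tcf4 (1.32 times).

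For all 7 members the 3 Classical mono libraries lay above the other 9 libraries. That was true of 7.98% of the 22118 genes tested, and since the members were picked on these libraries, nothing is read from their count. Over all genes edgeR called 44.9% between Classical mono and Early CMDM, 35.6% between Classical mono and Late CMDM and 23.7% between Classical mono and Resident-like. The summed level of the 7 was 1768, 954 and 1236 CPM in the 3 Classical mono libraries, 141 to 151 CPM in Early CMDM, 192 to 221 CPM in Late CMDM and 170 to 177 CPM in Resident-like. In bulk RNA, fewer cells of a type and less RNA per cell cannot be told apart.

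The 3 Classical mono libraries differed among themselves in a similar order for most members. Replicate 1 was the highest of the 3 for 7 of 7 genes and replicate 2 the lowest for 6, the exception being Upb1, which was lowest in replicate 3. The ratio of replicate 1 to replicate 2 ranged from 1.28 for Upb1 to 2.37 for Smim5, with a median of 1.78. Over the 18810 genes with a mean of at least 1 CPM in Classical mono the median ratio was 1.01, and 90% of them lay between 0.672 and 1.57. A ratio of at least the median of the members was found for 2.64% of those genes. Genes of other cells did not all follow this order. The summed level of 5 NK cell genes (Ncr1, Klrb1c, Gzma, Prf1 and Eomes) was 522, 307 and 450 CPM in replicates 1, 2 and 3, that of 8 T cell genes was 227, 182 and 172 CPM, that of 7 classical monocyte genes was 2353, 2353 and 1892 CPM, and that of the 5 keratinocyte genes was 2633, 3880 and 1797 CPM. The members therefore stood in the order of the NK cell genes, and not in that of the monocyte or keratinocyte genes. What sets these differences was not tested.

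**Figure D2:**
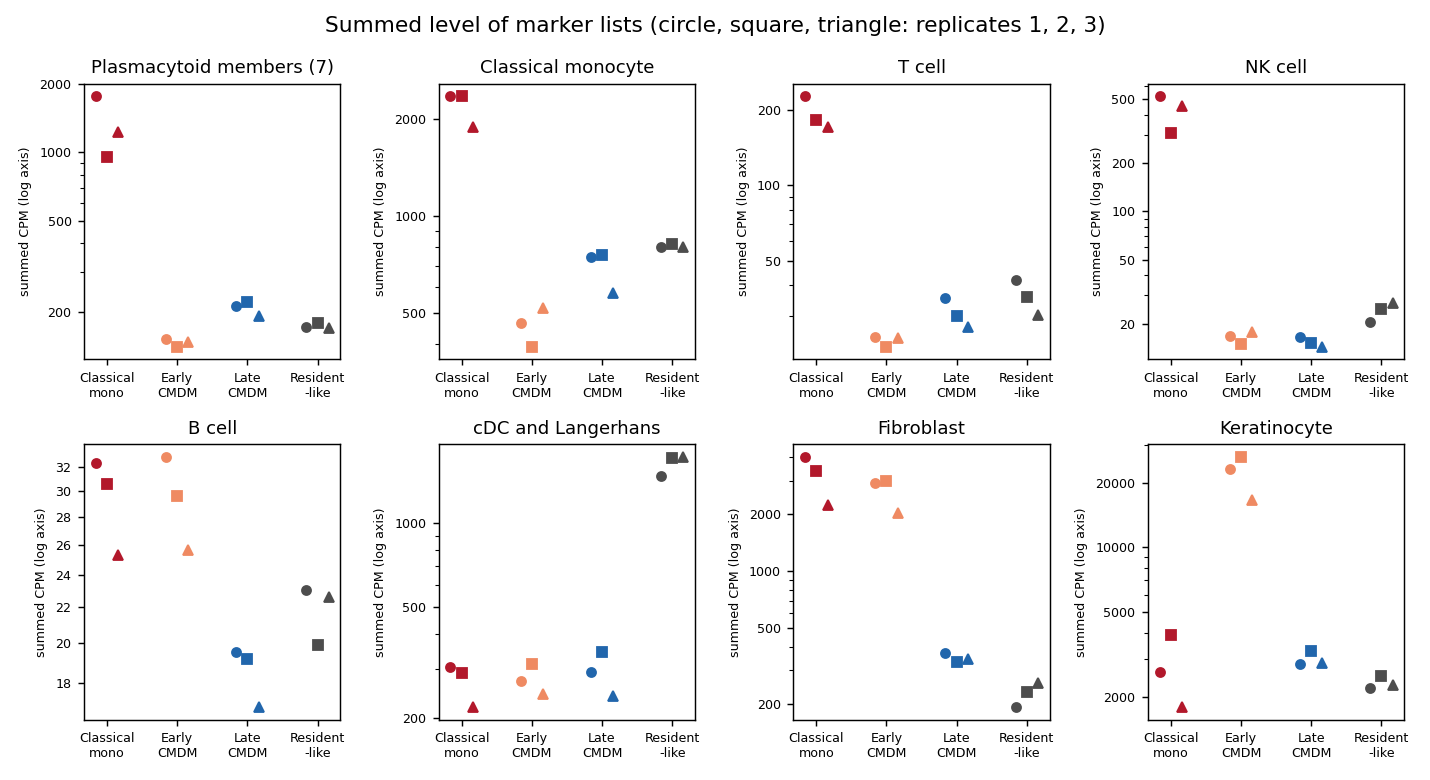
Summed TMM-normalized CPM (log axes with their own range) of the 7 members and of 7 marker lists of other cells in each library, with circle, square and triangle for replicates 1, 2 and 3. The members, classical monocyte genes, T cell genes and NK cell genes are each highest in the 3 Classical mono libraries. The cDC and Langerhans genes are highest in Resident-like (1478 to 1732 CPM) and keratinocyte genes in Early CMDM (16544 to 26342 CPM).

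**Figure D3:**
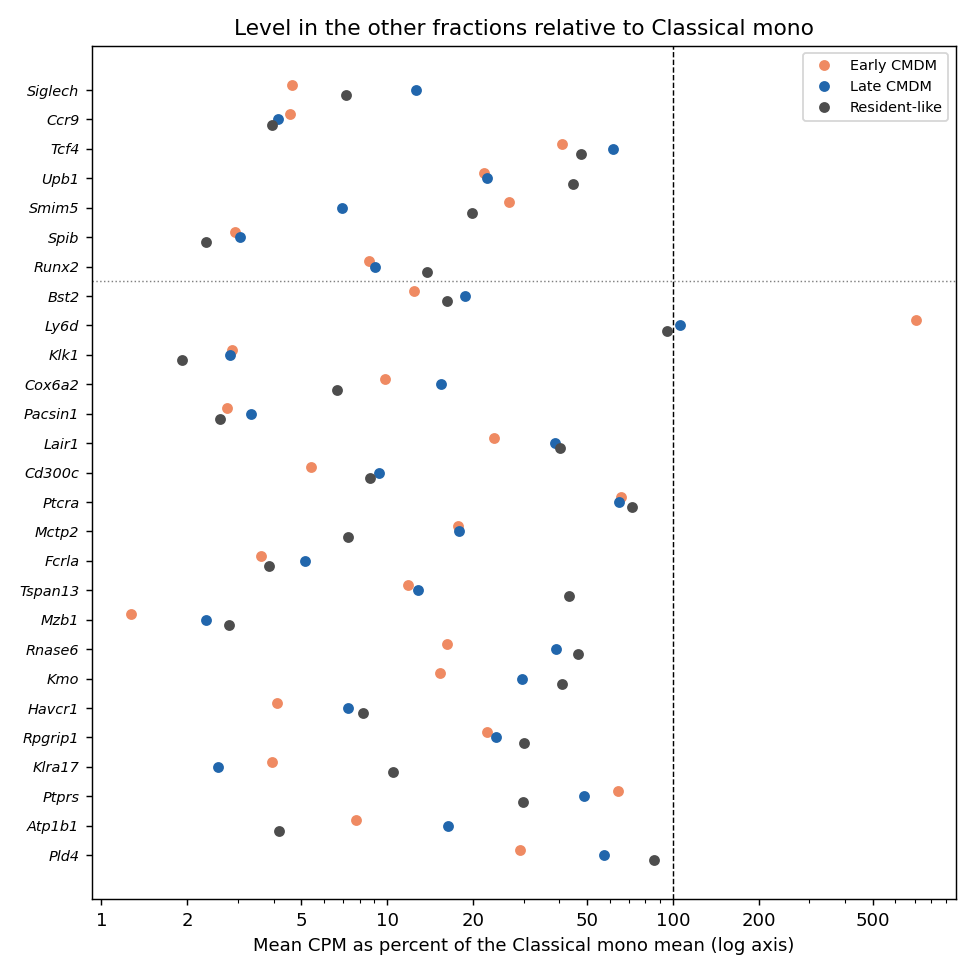
Mean CPM of Early CMDM, Late CMDM and Resident-like as percent of the Classical mono mean (log axis; dashed line at 100), for the 7 members above the dotted line and 20 other pDC genes below it. Spib and Ccr9 are under 5% in each of the 3 fractions and Tcf4 between 40.8% and 61.8%, and Ly6d alone is far to the right of the line in Early CMDM.

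The comparisons among the other 3 fractions use no Classical mono library in the contrast, so the members could be tested there. The spread of each gene was still estimated from all 12 libraries, Classical mono included. In Late CMDM against Early CMDM, the quasi-likelihood test of edgeR, adjusted by Benjamini-Hochberg over all genes, called 3 of 7 members, 2 higher and 1 lower in Late CMDM, beside 31.9% of all genes called (14.4% higher and 17.5% lower). In Resident-like against Early CMDM it called 3 of 7, all higher in Resident-like, beside 46.6% of all genes (21.4% higher and 25.1% lower). In Resident-like against Late CMDM it called 5 of 7, 3 higher and 2 lower, beside 28.1% of all genes (12.7% higher and 15.4% lower). The median log2 fold change of the members was 0.06, 0.22 and -0.06 in these comparisons, against 0.02, 0.03 and 0.00 over all genes.

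Part of these calls turned with the scaling, which moves all genes alike. With scaling by 10 leukocyte genes, the median of all genes moved by -0.87 in Late CMDM against Early CMDM, by -1.47 in Resident-like against Early CMDM and by -0.60 in Resident-like against Late CMDM. The direction turned for Tcf4 in the first of these and for Siglech, Upb1 and Runx2 in the second, while Siglech and Smim5 in the first and all 5 called members in the third kept theirs. The calls of members became 1 higher and 5 lower, 0 higher and 6 lower, and 1 higher and 4 lower. Over all genes the split of calls turned from 3174 higher and 3871 lower to 206 and 14977 in the first comparison, from 4736 and 5561 to 378 and 19298 in the second and from 2808 and 3417 to 633 and 11108 in the third. The changes below are therefore given relative to the bulk of all genes, which is what TMM holds constant.

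Siglech differed between every pair of these fractions. It was higher in Late CMDM than in Early CMDM by 1.44 on the log2 scale (SE 0.23, adjusted p = 0.000241, edgeR), the 3 libraries of each fraction not overlapping, and this call kept its direction under leukocyte scaling (0.58). It was lower in Resident-like than in Late CMDM, with a log2 fold change of -0.82 (SE 0.22, adjusted p = 0.0128, edgeR), and higher in Resident-like than in Early CMDM, with 0.62 (SE 0.23, adjusted p = 0.0378, edgeR). The last of these was weak: it lost the call in 7 of the 12 fits without 1 library (adjusted p up to 0.124) and turned to -0.85 under leukocyte scaling. The call against Late CMDM was lost without Late CMDM replicate 2 (adjusted p = 0.0568) and without Resident-like replicate 1 (adjusted p = 0.0544). Late CMDM replicate 3, at 26.5 CPM, stood nearer to the Resident-like libraries than to the other two of its fraction.

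Tcf4 followed the same order of means, Late CMDM above Resident-like above Early CMDM. It was higher in Late CMDM than in Early CMDM by 0.60 (log2, SE 0.12, adjusted p = 0.00085, edgeR) and lower in Resident-like than in Late CMDM, with a log2 fold change of -0.38 (SE 0.12, adjusted p = 0.0231, edgeR). Between Resident-like and Early CMDM the log2 fold change was 0.22 (SE 0.12) and was not called by edgeR's test (adjusted p = 0.13). The change of -0.38 lost its call without any of 5 libraries, which were Late CMDM replicates 1 and 2 and each Resident-like replicate, with adjusted p from 0.0516 to 0.097. Under leukocyte scaling the value in Late CMDM against Early CMDM was -0.28.

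Smim5 had the opposite order, with the least in Late CMDM. It was lower in Late CMDM than in Early CMDM, with a log2 fold change of -1.93 (SE 0.32, adjusted p = 0.000317, edgeR), and higher in Resident-like than in Late CMDM by 1.49 (SE 0.33, adjusted p = 0.00347, edgeR). Resident-like and Early CMDM were not told apart (-0.44, SE 0.28, adjusted p = 0.215, edgeR). Both calls kept their direction under leukocyte scaling (-2.83 and 0.89).

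Upb1 and Runx2 were higher in Resident-like than in the CMDM fractions. For Upb1 the log2 fold change was 1.03 against Early CMDM (SE 0.17, adjusted p = 0.000139, edgeR) and 1.01 against Late CMDM (SE 0.18, adjusted p = 0.000474, edgeR), and the Early and Late CMDM libraries overlapped (0.03, SE 0.19, adjusted p = 0.928, edgeR). For Runx2 the log2 fold change was 0.68 against Early CMDM (SE 0.17, adjusted p = 0.00341, edgeR) and 0.61 against Late CMDM (SE 0.17, adjusted p = 0.0134, edgeR), with 0.08 (SE 0.18, adjusted p = 0.784, edgeR) between the CMDM fractions. Under leukocyte scaling the changes against Early CMDM turned to -0.44 for Upb1 and -0.77 for Runx2, and those against Late CMDM fell to 0.40 and 0.01.

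Ccr9 and Spib were not called in any of the 3 comparisons. The log2 fold changes of Ccr9 lay between -0.21 and -0.06, with SE of 0.18 and adjusted p from 0.355 to 0.828 (edgeR), and those of Spib between -0.39 and 0.06, with SE of 0.25 and adjusted p from 0.28 to 0.885 (edgeR). A p that misses the threshold does not show that their levels were equal. The 2 members with the largest contrast to Classical mono were thus those not called among the remaining fractions. Their SE rest on a spread estimated from all 12 libraries, and Spib ranged from 225 to 526 CPM within Classical mono. In Resident-like Spib was at 7.95 to 9.24 CPM, below every library of the CMDM fractions (9.99 to 11.7 CPM).

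**Figure D4:**
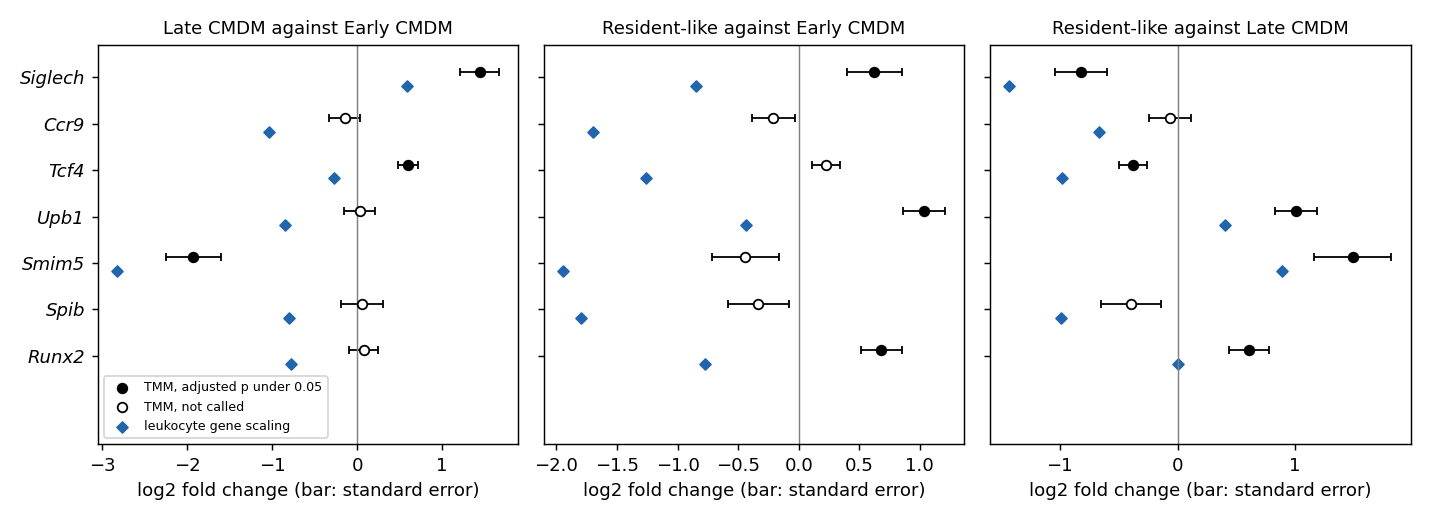
Log2 fold change of the 7 members in the 3 comparisons without Classical mono, with bars for the standard error (circles, TMM; filled where edgeR's adjusted p was under 0.05) and, as diamonds, the same values with libraries scaled by 10 leukocyte genes. Siglech is called in all 3, Ccr9 and Spib in none, and the diamonds lie to the left of the circles by 0.60 to 1.47 in the median of all genes.

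Other genes of pDCs were then read as a list of 31, made of 20 surface or effector genes and 11 regulators. The rule for the members does not name them, but the list was made with the levels of pDC genes in these libraries known, so its calls are not independent support for those of the members. In Classical mono against Early CMDM, 27 were higher and 2 lower, beside 20.6% and 24.2% of all genes. Against Late CMDM 27 were higher and 0 lower, beside 17.5% and 18.1%, and against Resident-like 24 were higher and 0 lower, beside 12.9% and 10.8% of all genes (edgeR, adjusted p under 0.05). Most of the list thus stood on the side of Classical mono, with 2 exceptions in 1 comparison, Ly6d and Id3. The median log2 fold change of the list was 2.16, 1.83 and 1.48, against 0.01, 0.01 and 0.00 over all genes. These counts moved with the scaling. Under leukocyte scaling the calls were 18 higher and 9 lower, 20 higher and 4 lower, and 22 higher and 0 lower. Relative to the shift of all genes 28, 29 and 29 of the 31 lay above. Taking off this shift nearly restores the TMM values, so these last counts are not a separate check. Over all genes that scaling turned the split of calls from 4562 higher and 5363 lower to 510 and 19888 against Early CMDM, from 3869 and 4000 to 1123 and 14107 against Late CMDM, and from 2852 and 2399 to 1599 and 2674 against Resident-like.

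Of the 20 surface and effector genes, 17 were higher in Classical mono than in each of the 3 other fractions, beside 6.08% of all genes. They were Bst2, Klk1, Cox6a2, Pacsin1, Lair1, Cd300c, Mctp2, Fcrla, Tspan13, Mzb1, Rnase6, Kmo, Havcr1, Rpgrip1, Klra17, Ptprs and Atp1b1. Under leukocyte scaling Ptprs turned to -1.06 (log2) against Early CMDM. Bst2 encodes the antigen of the pDC antibody PDCA-1 and is an interferon-induced gene in other cells. It was at 397, 223 and 208 CPM in Classical mono and at 29.3 to 54.1 CPM in the other 9 libraries. Klk1, a tissue kallikrein gene, was at 421, 196.5 and 224 CPM in Classical mono and at 4.47 to 8.56 CPM elsewhere, with a log2 fold change of 5.13 (SE 0.26, adjusted p = 5.68e-09), 5.15 (SE 0.27, adjusted p = 7.05e-09) and 5.71 (SE 0.27, adjusted p = 4.76e-09) by edgeR. Pacsin1, a membrane-bending adaptor gene, was at 25.7 to 46.6 CPM in Classical mono and at 0.633 to 1.55 CPM elsewhere. Mzb1, which serves antibody secretion in plasma cells and is also found in pDCs, had 3 counts or fewer in each Early CMDM library. Its summed counts there were 8, against 682 in Classical mono, which is a ratio of CPM of 77.8 with a 95% counting interval of 39.2 to 181. Most of the list stood high in the same library as the members: 18 of the 20 were higher in Classical mono replicate 1 than in replicate 2, with a median ratio of 1.72. The regulators did not stand out in this way: 6 of 11 were higher in replicate 1 than in replicate 2, with a median ratio of 1.11.

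The other 3 of the 20 broke this pattern. Ly6d, a surface gene of lymphoid pDC precursors and also of stratified epithelium, was at 2040.3 ± 345 CPM in Early CMDM and 288 ± 127 CPM in Classical mono (SD, n = 3; log2 fold change -2.83, SE 0.26, adjusted p = 1.07e-06, edgeR), the fraction in which the keratinocyte genes were also highest. The part of keratinocyte RNA in it was not tested. Ptcra, the pre-T cell receptor alpha gene, was at 1.59 ± 0.336 CPM in Classical mono (SD, n = 3) and was not called in any of the 3 comparisons (edgeR, adjusted p from 0.103 to 0.258). Pld4, an endosomal nuclease gene, was higher in Classical mono than in Early CMDM (log2 1.78, SE 0.15) and Late CMDM (0.80, SE 0.15) but was not called against Resident-like (0.22, SE 0.15, adjusted p = 0.327, edgeR).

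Among the 11 regulators, 6 were higher in Classical mono than in each other fraction: Irf8, Irf7, Bcl11a, Tcf12, Flt3 and Ikzf1. Under leukocyte scaling Tcf12 turned to -1.25 and Bcl11a to -0.51 (log2) against Early CMDM, and Tcf12 to -0.55 against Late CMDM. The other values of these 6 genes kept their direction. With that scaling 3 of the 11 were called higher and 6 lower than in Early CMDM. Flt3, the receptor of the growth factor on which dendritic cells depend, was at 60.5 to 80.9 CPM in Classical mono, 4.08 to 6.01 CPM in Early CMDM, 8.77 to 11.5 CPM in Late CMDM and 21.7 to 30.8 CPM in Resident-like. Irf7, the factor that drives interferon-alpha transcription, was at 178 ± 57.1 CPM in Classical mono against 39.1 ± 8.91 to 45.8 ± 16.1 CPM elsewhere (SD, n = 3), and Irf8, shared with monocytes and conventional dendritic cells, was at 391 ± 84.2 CPM against 87.8 ± 23.4 to 140 ± 10.3 CPM. The E proteins that resemble TCF4 did less. Tcf12 differed by 0.24 to 0.47 (log2), and Tcf3 was not called in any comparison (edgeR, adjusted p from 0.101 to 0.967). The inhibitors of E proteins went their own ways. Id2 was at 563 ± 45.2 CPM in Classical mono and 653 ± 14.9 CPM in Resident-like (SD, n = 3; log2 fold change -0.21, SE 0.12, adjusted p = 0.234, edgeR), and higher in Classical mono than in Early CMDM (1.04, SE 0.12) and Late CMDM (0.52, SE 0.12). Id3 was lower in Classical mono than in Early CMDM (-1.10, SE 0.15) and higher than in Resident-like (0.94, SE 0.15). Zeb2 was called against Early CMDM only, at 1.00 (SE 0.13), and Cbfa2t3 was called against both CMDM fractions, at 1.62 (SE 0.17) and 0.46 (SE 0.17), but not against Resident-like (-0.03, SE 0.16).

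**Figure D5:**
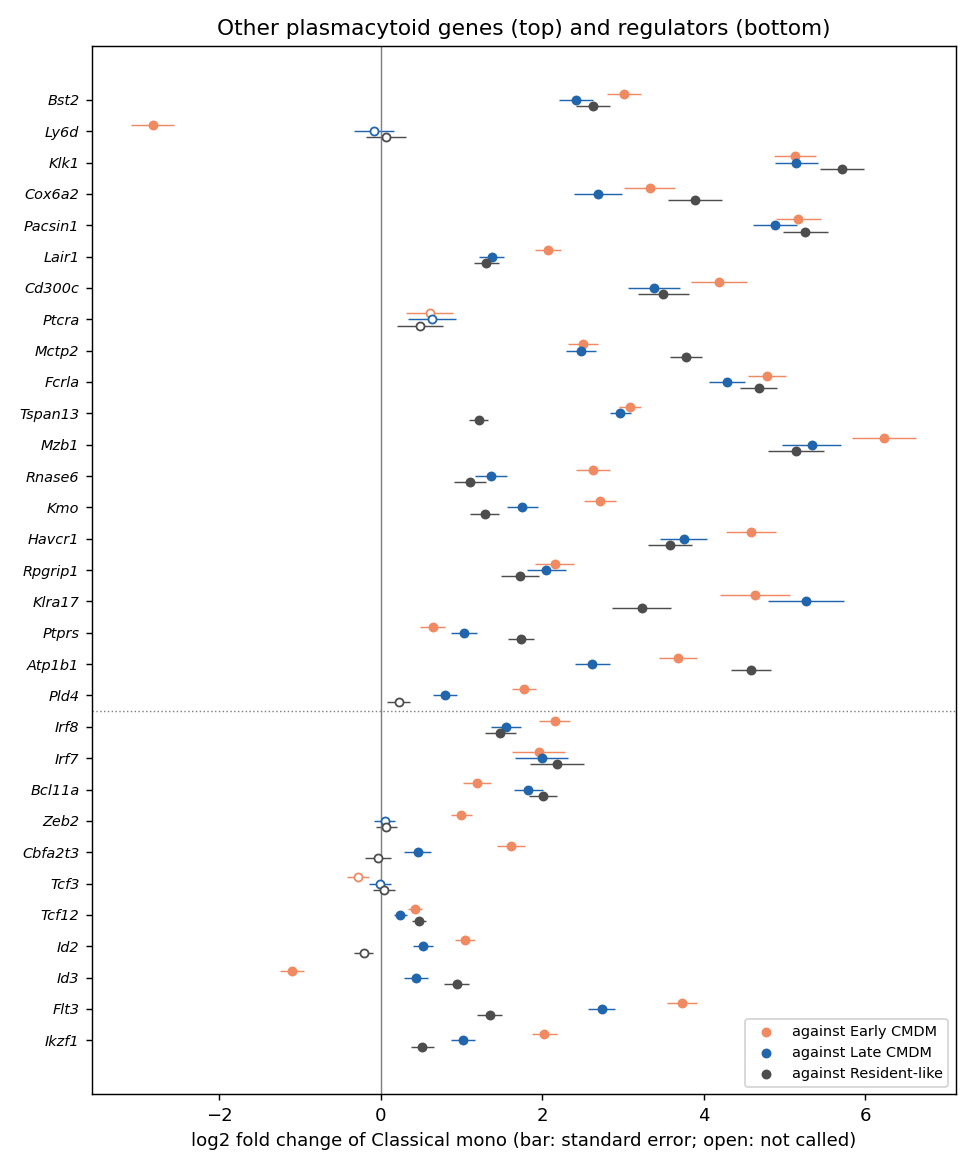
Log2 fold change of Classical mono against each other fraction for 20 other pDC genes (above the dotted line) and 11 regulators (below), with bars for the standard error and open symbols where edgeR's adjusted p was not under 0.05. The highest value is 6.23 for Mzb1, which had 3 counts or fewer in each Early CMDM library, and the negative called values are Ly6d and Id3 against Early CMDM.

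Nucleic acid sensing, the task for which pDCs are known, was read from a list of its own. Of 26 genes of endosomal nucleic acid sensing and type I interferon, 16 were in the table and 11 passed the filter. In Classical mono 9 were higher than in Early CMDM, 4 higher than in Late CMDM and 3 higher than in Resident-like, with 0 lower in each, beside 20.6%, 17.5% and 12.9% of all genes. Only Traf3 and Chuk, 2 of the 11, were higher than in all 3, beside 6.08% of all genes. Under leukocyte scaling 0 were higher and 8 lower than in Early CMDM, and 1 higher and 8 lower than in Late CMDM. Against Resident-like 0 were higher and 0 lower. Over all genes the split was then 510 higher and 19888 lower against Early CMDM. Traf3 and Chuk stood at -0.68 and -1.19 (log2) against Early CMDM with that scaling. Tlr9 was at 25.2 ± 6.32 CPM in Classical mono, 6.64 ± 1.94 CPM in Early CMDM, 9.40 ± 0.0886 CPM in Late CMDM and 17.2 ± 3.8 CPM in Resident-like (SD, n = 3), the last not told apart from Classical mono (log2 0.55, SE 0.21, adjusted p = 0.0671, edgeR). Tlr7, also a receptor of macrophages, was at 52.6 ± 5.18 CPM in Classical mono and 65.9 ± 7.2 CPM in Late CMDM and was called against Early CMDM only (1.25, SE 0.17). Interferon transcripts were scarce. Ifnb1 had 21, 5 and 7 counts in Classical mono, 0 to 4 in Early CMDM, 1 to 3 in Late CMDM and 0 to 18 in Resident-like, and Ifna2, Ifna13, Ifna16 and Ifnab were lower still and were not tested. The other 10 interferon-alpha genes of the list were not analysed here.

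Genes linked to single members were read next. Of 9 tested lectins and adaptors related to Siglech, only Tyrobp, which encodes the DAP12 adaptor and is used by all myeloid cells, was higher in Classical mono than in each other fraction, at 1016 ± 150 CPM against 324 ± 80.1, 610 ± 37.6 and 723 ± 105 CPM (SD, n = 3). Tyrobp is itself among the 10 leukocyte genes of the alternative scaling. With that scaling its log2 fold change was 0.02 against Early CMDM, -0.05 against Late CMDM and 0.30 against Resident-like. Siglecf, the gene of a protein that the sort selected against, was at 0.193 ± 0.0463 CPM in Classical mono and 2.35 ± 0.21 CPM in Resident-like. Other enzymes of pyrimidine and beta-alanine breakdown, read for their link to UPB1, were scarce. Dpyd, Dpys and Abat were tested, with means of at most 3.02 CPM in any fraction, and none was higher in Classical mono than in all the others. Ccl25, the ligand of CCR9, was at 7.45 to 9.76 CPM in Classical mono and was higher there than in Early CMDM (log2 0.71, SE 0.21, adjusted p = 0.0124, edgeR) and Late CMDM (0.76, SE 0.21, adjusted p = 0.0112, edgeR) but not called against Resident-like (0.35, SE 0.21, adjusted p = 0.269, edgeR). Under leukocyte scaling the values of Ccl25 became -0.96, -0.04 and 0.15.

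Markers of other cells were read in the same libraries. Markers of the labelled monocytes were present: 4 of 7 classical monocyte markers, among them Ly6c2, Plac8 and Vcan, were higher in Classical mono than in each other fraction, Ly6c2 at 492 ± 113 CPM against 17.5 ± 1.5 to 49.3 ± 4.78 CPM (SD, n = 3). Ly6c2 is used by pDCs and some lymphocytes as well. The others went differently: Ccr2 was at 390 ± 54.2 CPM in Classical mono and 439 ± 15.8 CPM in Resident-like (SD, n = 3; not called), Chil3 was called against Resident-like only (log2 1.33, SE 0.26), and F13a1 was lower in Classical mono than in Late CMDM (-1.06, SE 0.22). The T and NK cell lists were also high in this fraction. Of 8 T cell markers 7 were higher in Classical mono than in all the others, with a summed level of 172 to 227 CPM against 22.7 to 41.9 CPM in the other 9 libraries, and of 5 NK cell markers 4 were, with 307 to 522 CPM against 14.4 to 26.8 CPM. Of 7 conventional dendritic and Langerhans cell markers only Clec9a was, at 8.37 ± 1.53 CPM against 0.304 ± 0.0829 to 0.441 ± 0.386 CPM, a gene that pDCs of the mouse also express. Of 5 plasma cell markers only Prdm1 was, although not under leukocyte scaling against Early CMDM (log2 -0.57). Jchain was at 0.98 ± 0.436 CPM (SD, n = 3). For B cells, basophils and mast cells, neutrophils, fibroblasts, endothelium, keratinocytes and bone, 0 markers were. Over all genes 6.08% were higher in Classical mono than in each other fraction. The part of these cells in the level of the members was not tested.

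The genes whose pattern was nearest to that of Siglech were found by the root mean square (RMS) difference of log2 CPM over the 12 libraries, each gene centred on its own mean. They were Cd8b1 (0.41), Klrc2 (0.43), Wdr95 (0.44), Tbc1d10c (0.45) and Ptprcap (0.45). Cd8b1 is a chain of the T cell co-receptor CD8 and Klrc2 is an NK cell receptor. Wdr95 rests on few reads, 85 counts in Classical mono and 1 in Early CMDM. The nearest to the mean of the 7 members were Ptprcap (0.26), Rnf125 (0.27), BC147527 (0.28), Gm12253 (0.28) and Myb (0.28). The members themselves stood at 0.22 (Runx2) to 0.96 (Tcf4) from their own mean, so the 7 genes varied more among themselves than these genes did from their mean, except for Runx2. Likeness over 12 libraries in 4 groups is largely likeness in the 4 group levels, and it is given as a description.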

How the data were processed

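mRNA of 4 Mo-Mac fractions was captured with oligo(dT) and sequenced in 12 libraries, with groups and replicate numbers from the titles. The deposited table holds whole-number counts for each gene symbol: per the methods and processing notes, the authors trimmed reads with cutadapt 4.1, mapped them with Bowtie2 2.4.5 to GRCm38 reference RNA and counted reads per gene, without normalization. The number of unused columns was 0. Reads shared between paralogs could be split by such counting.

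From the counts, edgeR 4.0.16 (R 4.3.3) gave TMM normalization, filtering by filterByExpr and robust quasi-likelihood fits of all 12 libraries, with 1 coefficient per fraction and no replicate block. The study's own test package was not used here. 22118 of 37775 genes were tested, with Benjamini-Hochberg adjustment over all of them and a threshold of 0.05. CPM are TMM-normalized, and the biological coefficient of variation was 13.2%. Totals of 12537178 to 19844113 counts put 3 counts at 0.151 to 0.239 CPM. Replicates differed beyond sampling noise (chi-square over degrees of freedom 4.24 to 21.9), so all were kept as separate libraries. Promoter windows come from RefSeq and exon overlaps from GENCODE M21. The fit was tested on simulated counts. Single values of 2 marker genes are not reported here.

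The members and gene lists were chosen with earlier results of these data known. All 7 members are named, and of each list its counts, the genes called in one direction in all 3 comparisons of Classical mono, those with the largest changes, and defining genes that were absent or untested. Alternatives were RLE size factors, library size only, scaling by 10 leukocyte genes, DESeq2 1.42.0, other filters and thresholds, fits of 6 libraries, a replicate block, and leaving out each library.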

Additional observations from a re-analysis of the deposited data

How the results depend on the processing

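The number of pDC members called was 3, 3 and 5 in Late CMDM against Early CMDM, Resident-like against Early CMDM and Resident-like against Late CMDM. Scaling by 10 leukocyte genes gave 6 in the first and 6 in the second. A log2 fold change of at least 1 left 1 in the second and 2 in the third, and a threshold of 0.01 left 2 in the third. Without 1 library the third ranged from 3 to 5, with 3 without Late CMDM replicate 2 and 3 without Resident-like replicate 1. These results kept within 1.5 times of their main count under RLE size factors, library size only, DESeq2, both other filters and fits of the 6 libraries of a comparison, as did the number of the 31 other pDC genes called in either direction under every alternative run. By direction these moved under leukocyte scaling, from 27 higher and 2 lower to 18 and 9 against Early CMDM and from 27 and 0 to 20 and 4 against Late CMDM.

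Leukocyte scaling reversed Tcf4 in Classical mono against Early CMDM (-0.38) and Late CMDM (-0.10), in Late CMDM against Early CMDM (-0.28) and in Resident-like against Early CMDM (-1.26). In Late CMDM against Early CMDM it also reversed Upb1 (-0.84), Spib (-0.80) and Runx2 (-0.78), and in Resident-like against Early CMDM it reversed Siglech (-0.85), Upb1 (-0.44) and Runx2 (-0.77). By construction it lowers every gene by the ratio of the leukocyte genes. In Classical mono against Early CMDM the members other than Tcf4 kept their direction but fell. They were then at 2.77 for Siglech and for Ccr9, 3.44 for Spib, 1.90 for Runx2, 0.53 for Upb1 and 0.21 for Smim5. In Late CMDM against Early CMDM, where neither was called, library size alone turned Upb1 to -0.000599, and without 1 library Upb1 ranged from -0.028 to 0.10 and Runx2 from -0.0096 to 0.21. Siglech in Resident-like against Early CMDM was not called with library size only (0.46, adjusted p = 0.13, edgeR).

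The replicate numbers were not taken to pair the samples: the correlation of deviations between libraries of the same number ran from -0.0987 to 0.248, with 4 of 18 pairs over 0.1, although 10 of 12 libraries correlated best with their own number. With the replicate block the members called were again 3, 3 and 5, and the other pDC genes called were 29, 27 and 24. Depth did not limit the members, whereas Ifna2, Ifna13, Ifna16 and Ifnab lay near the level of 3 counts and Ifnb1 had at most 21 counts.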
